A study of Mus musculus with 30 samples.

Results

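The RNA recovered with an antibody against nucleolin from axoplasm of injured mouse sciatic nerve was compared with the RNA recovered by the same antibody after incubation with its blocking peptide (blocked IP). The members were 6 of the 30 libraries of the series: 3 nucleolin IP and 3 blocked IP libraries, chosen by their labels, with all 15841 transcripts of their count table. All 6 came from nerves taken 7 days after a crush, with 10 nerves pooled per sample and 3 libraries per group; the protocols give no strain, sex or age. The nerve was ground whole with a pestle and cleared in a centrifuge, so the extract, called enriched axoplasm, can hold cytoplasm of every cell of the nerve. The antibody was added to the extract, and protein G beads pulled it down. Nucleolin IPs of naive nerve, IPs of injured nerve against PTBP1, an RNA-binding protein that represses splicing, the blocked IPs of each, and input RNA of injured nerve served for comparison, with 3 libraries per group. The counts taken as naive nucleolin blocked IP 3 were labelled PCP rather than as a control. Their assignment to that library is therefore uncertain, as is every comparison that uses it.

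Nucleolin is an abundant protein of the nucleolus, where it binds precursor ribosomal RNA and takes part in making ribosomes. It also binds mRNAs in the cytoplasm, and in sensory axons it is known to carry mRNAs such as Kpnb1 (importin beta 1) and Mtor along microtubules with a kinesin motor. An IP of the protein followed by sequencing reports which RNAs stay with it through the washes, and the blocked IP reports what the beads and the antibody hold without access to the antigen.

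No transcript passed the test. Of 14936 transcripts tested with edgeR's quasi-likelihood test, 0 were higher and 0 were lower in the nucleolin IP at an adjusted p of 0.05, which is 0.0% of the transcripts each way. The smallest adjusted p was 0.133, and 952 transcripts were higher and 221 lower at an unadjusted p of 0.05. DESeq2 called 506 higher and 17 lower. All values below are therefore descriptions of libraries whose groups lie apart, not calls.

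Nucleolin IP 3 and blocked IP 3 each stood nearer to the other than to the libraries of their own groups. The correlation of log2 CPM (counts scaled to library size with TMM factors) was 0.952 between nucleolin IP 3 and blocked IP 3, against 0.876 and 0.917 between nucleolin IP 3 and the other IP libraries. Blocked IP 3 correlated at 0.828 and 0.865 with blocked IPs 1 and 2, which correlated at 0.780 with each other. Without nucleolin IP 3, edgeR called 81 transcripts, all higher in the IP. It called 0 without blocked IP 3, and 0 without the libraries numbered 3 of both groups. Totals were 14151588, 11567633 and 14068767 counts in the nucleolin IPs, against 21039669, 14353693 and 15082491 counts in the blocked IPs. The table was filtered before deposit: 9999 transcripts reached 5 counts in every library of both groups, 5017 did so only in the IPs and 825 only in the blocked IPs. Of the listed transcripts, 1.12%, 0.423% and 0.0821% had no count in IP libraries 1, 2 and 3, against 1.54% to 21.8% in the blocked libraries. The groups did not overlap, but blocked IP 3 lay close to IP 1, and no test is given, because the 5017 transcripts that entered the table through the IPs alone cannot be at 0 in any IP, so the filter set the direction.

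The sequences below carry the main pattern of the data, which is a run of alternating cytosine and adenine (CA) on the sense strand of transcripts that were high in the nucleolin IP. Each is a stretch of 30 bases of the transcript, 5′ to 3′, from GENCODE M21 on GRCm38, and the capitals mark the run as far as the stretch reaches. The first 5 are transcripts of the set with the lowest p, the next are among the most abundant in the IP, and the last are an isoform and a Schwann cell gene described below.
Cat (chr2:103454333-103454362, minus strand, 3′ UTR): acatacCACACACACACACACAtgcaatac
Pkd2 (chr5:104493448-104493477, plus strand, retained intron transcript): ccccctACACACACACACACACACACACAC
Htt (chr5:34898987-34899016, plus strand, retained intron transcript): gtgcatACACACACACACAatcatgcacag
Acot2 (chr12:83993679-83993708, plus strand, 3′ UTR): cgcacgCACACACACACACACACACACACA
Egfl6 (chrX:166523273-166523302, minus strand, 3′ UTR): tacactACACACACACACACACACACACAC
Slc6a6 (chr6:91758756-91758785, plus strand, 3′ UTR): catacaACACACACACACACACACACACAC
Igsf6 (chr7:121064120-121064149, minus strand, 3′ UTR): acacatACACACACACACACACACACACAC
Ubap2l (chr3:90000459-90000488, minus strand, 3′ UTR): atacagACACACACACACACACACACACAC
Ncam1 (chr9:49505321-49505350, minus strand, 3′ UTR): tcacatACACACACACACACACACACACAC

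The 12 transcripts with the lowest p among those with a mean of at least 5 CPM and all 3 IP libraries above all 3 blocked libraries were Htt, Pkd2, Tbx15, Rbm5, Exoc4, 2510009E07Rik, 6820431F20Rik, Egfl6, Acot2, Cat, Rian and the transcript ENSMUST00000179299, for which the annotation used here gives no symbol. Each had an adjusted p of 0.133. Cat, which encodes catalase, the peroxisomal enzyme that breaks down hydrogen peroxide, had 15710, 7849 and 2525 CPM in the nucleolin IPs, against 333, 262 and 331 CPM in the blocked IPs. The groups were far apart, and the log2 fold change was 4.82 ± 0.74 (SE). In input RNA, scaled to library totals without TMM factors, Cat averaged 380 ± 222 CPM (SD, n = 3), close to the blocked IPs.

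Pkd2, the polycystin-2 cation channel, was represented by a retained intron transcript with 4919, 2114 and 721 CPM in the nucleolin IPs, against 75.4, 65.1 and 53.8 CPM in the blocked IPs, a log2 fold change of 5.32 ± 0.75 (SE). The retained intron transcript of Htt, the huntingtin gene, had 460, 321 and 130 CPM in the IPs, against 12.5, 14.7 and 12.1 CPM in the blocked IPs. Acot2, a mitochondrial acyl-CoA thioesterase, had 1830, 1143 and 346 CPM in the IPs, against 49.7, 23.6 and 63.9 CPM in the blocked IPs. In each of these IP library 3 was the lowest of its group and still above every blocked library. Exoc4, a subunit of the exocyst that tethers vesicles to the plasma membrane, averaged 628 ± 195 CPM in the IPs and 69.8 ± 32.3 CPM in the blocked IPs (SD, n = 3 each). Tbx15, a T-box transcription factor, had 649, 798 and 277 CPM in the IPs, against 52.0, 67.9 and 63.2 CPM in the blocked IPs. Rbm5, an RNA-binding splicing regulator, averaged 163 ± 79.4 CPM in the IPs and 14.4 ± 3.44 CPM in the blocked IPs. Like Htt, its transcript is a retained intron form. Rian, an imprinted long noncoding RNA, averaged 528 ± 312 CPM in the IPs and 33.8 ± 16.5 CPM in the blocked IPs. Log2 fold changes of the 12 ran from 3.13 to 5.44. Their longest CA runs varied: Egfl6 held 21 units, Acot2 20, Tbx15 18, 6820431F20Rik 12, Cat 8, Rbm5 7 and Htt 6, while 2510009E07Rik held 4 and Exoc4 and Rian 3.

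**Figure D1:**
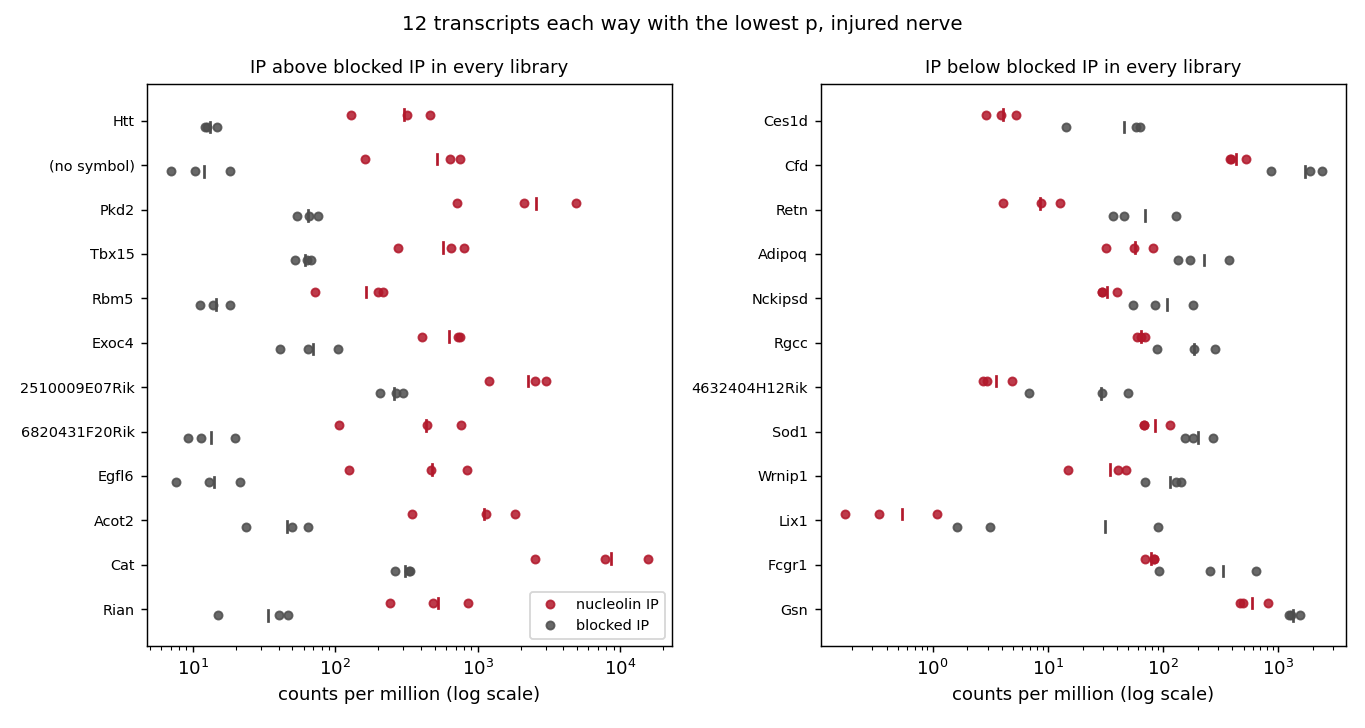
CPM (log scale) of the 12 transcripts each way with the lowest p, with the 3 nucleolin IP libraries in red and the 3 blocked IP libraries in grey; vertical ticks are group means. On the left the lowest IP library of Cat is at 2525 CPM and the highest blocked library at 333 CPM, and on the right Cfd has IP libraries of 381 to 521 CPM below blocked libraries of 865 to 2379 CPM.

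The 10 most abundant transcripts of the IP included genes far above the blocked IP and genes at its level. Slc6a6, the taurine transporter, had 13350, 13650 and 2656 CPM in the nucleolin IPs, against 671, 546 and 650 CPM in the blocked IPs, a log2 fold change of 3.99 ± 0.70 (SE) with an adjusted p of 0.139. Cyb5r3, an NADH-cytochrome b5 reductase, had 35040, 8647 and 2731 CPM in the IPs, against 2025, 686 and 1191 CPM in the blocked IPs. Igsf6, an immunoglobulin superfamily protein of myeloid cells, averaged 7454 ± 5873 CPM in the IPs and 242 ± 79.1 CPM in the blocked IPs (SD, n = 3 each), with a log2 fold change of 4.95. The longest run was 14 CA units in Slc6a6, 14 in Cyb5r3 and 13 in Igsf6. Malat1, Actb, Yam1 and Ctsb had overlapping groups, and Lars2 lay lower. Malat1, a nuclear long noncoding RNA, averaged 30350 ± 12770 CPM in the IPs and 35980 ± 12650 CPM in the blocked IPs. Actb, which encodes beta-actin, averaged 10610 ± 2467 CPM in the IPs and 8546 ± 3361 CPM in the blocked IPs. Yam1, Ctsb and Lars2 had log2 fold changes of -0.76, -0.25 and -0.98, and Yam1 and Lars2 were listed as possible sites of ribosomal RNA reads, whose part was not tested.

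On the low side, the 12 transcripts with the lowest p were Ces1d, Cfd, Retn, Adipoq, Nckipsd, Rgcc, 4632404H12Rik, Sod1, Wrnip1, Lix1, Fcgr1 and Gsn, with adjusted p between 0.161 and 0.335. Cfd, the complement factor D secreted by adipocytes, had 521, 392 and 381 CPM in the nucleolin IPs, against 1899, 2379 and 865 CPM in the blocked IPs, a log2 fold change of -1.99 ± 0.45 (SE). Adipoq, adiponectin, had 32.1, 81.3 and 56.0 CPM in the IPs, against 172, 372 and 134 CPM in the blocked IPs. Retn, resistin, had 8.70, 4.06 and 12.9 CPM in the IPs, against 129, 45.5 and 36.8 CPM in the blocked IPs. All 3 are genes of fat cells. Of the 5 adipocyte markers tested, 3 lay below the blocked IPs and 0 above. Over all genes with 1 transcript each, 5.38% lay below and 11.8% above. In input RNA, scaled to library totals without TMM factors, Cfd averaged 27.9 ± 10.6 CPM and Retn 2.07 ± 1.6 CPM (SD, n = 3 each), below both groups. Log2 fold changes in naive nucleolin IPs were also negative, at -1.75 for Cfd, -1.23 for Adipoq and -1.44 for Retn. In injured PTBP1 IPs they were -5.74 for Cfd and -4.24 for Adipoq. Summed over the listed adipocyte markers, the IPs held 1316, 1901 and 1045 CPM, against 5011, 9891 and 2206 CPM in the blocked IPs, so the groups did not overlap; the part of fat cell RNA in the low transcripts was not tested. Of the others, Sod1, the superoxide dismutase of the cytosol, averaged 84.3 ± 27.2 CPM in the IPs and 203 ± 61.7 CPM in the blocked IPs (SD, n = 3 each), and Gsn, the actin-severing protein gelsolin, averaged 593 ± 197 CPM in the IPs and 1355 ± 156 CPM in the blocked IPs.

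All 3 IP libraries lay above all 3 blocked libraries in 1979 of the 14936 tested transcripts (13.2%), and below them in 710 (4.75%). The filter before deposit favours the first count, since 5017 transcripts entered through the IPs alone and 825 through the blocked IPs alone. Its part in this excess, and in the differences of type, length and sequence below, was not tested. Among the 9637 with a mean of at least 5 CPM, 1090 (11.3%) lay above and 549 (5.7%) below. Those above held more retained intron transcripts, 19.1% against 8.66% of all such transcripts, and fewer protein-coding ones, 66.9% against 82.2%. Their median length was 3530 bases and their GC content 45.9%, against 2970 bases and 48.9% for all. Those below were 91.1% protein-coding, with a median of 2380 bases and a GC content of 52.1%. The nucleolin recognition element, searched on the sense strand only, as NCCCGN with T or G at its first position and A or G at its last, was present in 70.4% of the transcripts above, 76.9% of those below and 74.4% of all. Per kb it averaged 0.523 in those above, 0.908 in those below and 0.702 in all. ATTTA, the AU-rich element core, was present in 87.7%, 72.8% and 80.3% in the same order, and GGGG in 97.2%, 97.6% and 97.1%.

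Counting every word of 7 bases on the sense strand gave the CA run as the main sequence feature of the high transcripts. Among 561 transcripts whose groups lay apart with a log2 fold change above 2, CACACAC occurred 2.65 times per kb, against 0.293 in the 8953 others, and was present in 71.3% against 29.3% of transcripts. ACACACA ranked next, at 2.78 against 0.309 per kb, out of 12263 words that occurred at least 50 times in the high set. The reverse complement GTGTGTG had 0.967 against 0.484 per kb and ranked 34th. The word set was chosen from the same fold changes, so these densities are a description.

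Transcripts were then grouped by their longest uninterrupted run of CA units, without regard to their fold change. The median log2 fold change, nucleolin IP over blocked IP, was -0.15 for the 7657 transcripts with 0 to 3 units and 0.09 for the 1156 with 4 to 5 units. It was 0.79 for 247 transcripts with 6 to 9 units, 1.24 for 130 with 10 to 14, 2.09 for 137 with 15 to 19 and 2.50 for 187 with 20 or more. The share lying above the blocked IPs was 7.0% of transcripts with 0 to 3 units and 60.4% of those with 20 or more, against 11.3% of all. Of the 454 transcripts with 10 or more units, 3 (0.661%) lay below the blocked IPs, against 5.69% of all 9514 with a sequence. The correlation across transcripts between run length and log2 fold change was 0.41 (Pearson) and 0.28 (Spearman) over 9514 transcripts that share the same 6 libraries. Within single libraries, the median log2 CPM of transcripts with 10 or more units minus that of transcripts with 3 or fewer was 1.62, 1.23 and 0.03 in nucleolin IPs 1, 2 and 3, against -0.98, -1.11 and -1.05 in the blocked IPs. IP library 3 thus lay between the other IP libraries and the blocked IPs. The pattern was first seen in these libraries and then described in them, so they give it no test; 4.17% of the annotated listed transcripts hold a run of 10 or more units.

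**Figure D2:**
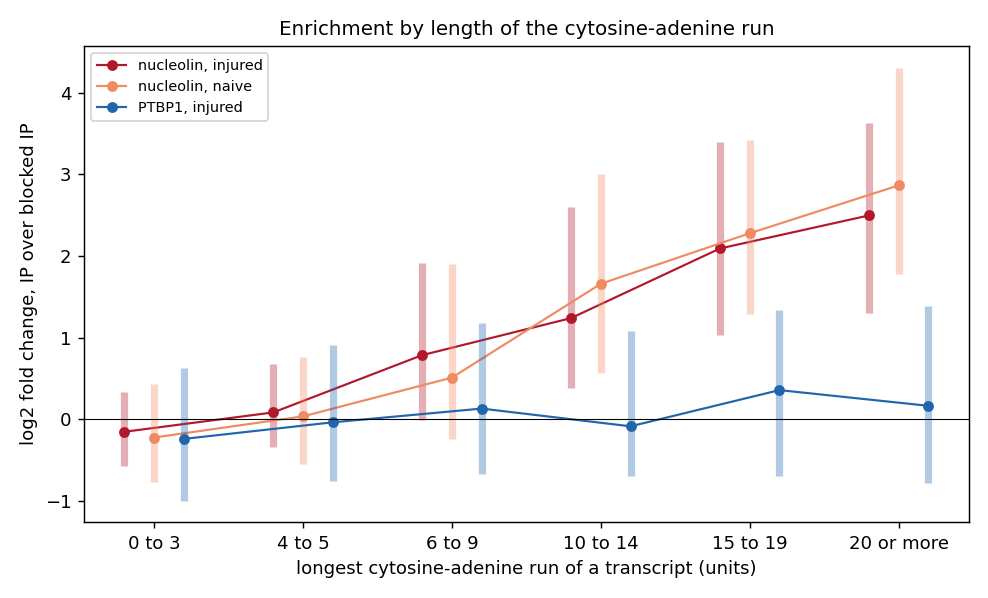
Median log2 fold change of IP over blocked IP (points) and the interquartile range over transcripts (bars) by the longest cytosine-adenine run, for nucleolin in injured and naive nerve and PTBP1 in injured nerve. The nucleolin medians of both conditions climb with run length, to 2.50 and 2.86 at 20 or more units, and the PTBP1 medians stay between -0.24 and 0.36.

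Runs of other dinucleotides went with smaller values. With runs of at least 10 units, the median log2 fold change was 2.08 for CA (n = 454), 0.48 for TG (n = 442), 0.44 for GA (n = 145), 0.30 for TC (n = 150) and 0.24 for TA (n = 92). The shares above the blocked IPs were 54.8%, 27.6%, 28.3%, 26.7% and 21.7% in the same order, each higher than the 11.3% of all. Some of these transcripts also hold a CA run. Where the longest CA run was 3 units or fewer, the median was 0.31 for TG (n = 290), 0.11 for GA (n = 79), 0.09 for TC (n = 86) and 0.05 for TA (n = 51). TG is the same repeat read from the other strand. No source used here says whether counting took account of strand.

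**Figure D3:**
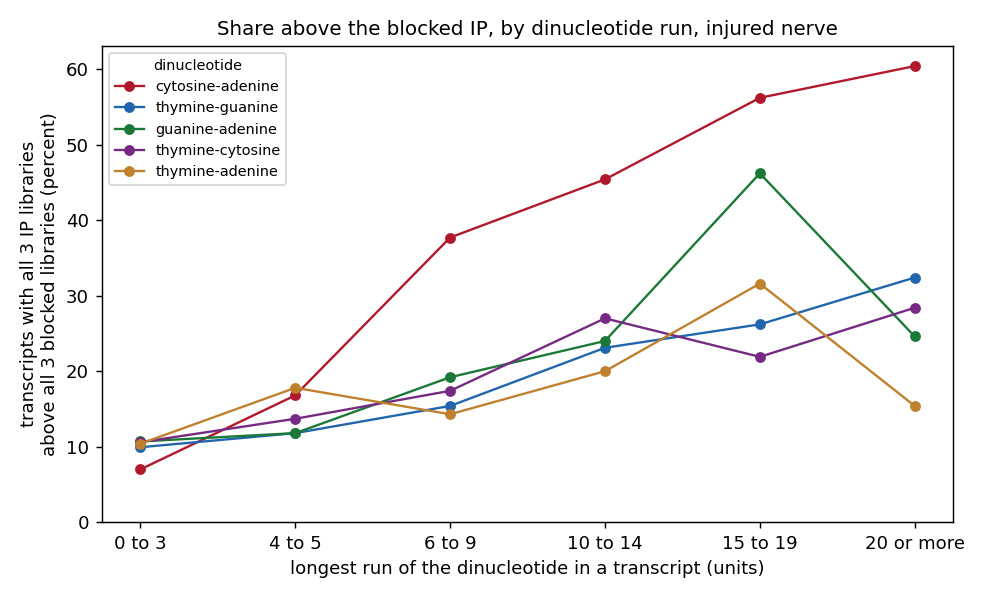
Percent of transcripts with all 3 nucleolin IP libraries above all 3 blocked libraries, by the longest run of each dinucleotide. Cytosine-adenine reaches 60.4% at 20 or more units against 32.4% for thymine-guanine, and the thymine-adenine points at 15 units or more rest on 19 and 13 transcripts.

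The difference between long and short runs was present in protein-coding and in retained intron transcripts. In protein-coding transcripts the median log2 fold change was 1.78 with 10 or more units (n = 331) and -0.17 with 3 or fewer (n = 6317). In retained intron transcripts it was 2.80 (n = 78) and 0.20 (n = 604). Of the protein-coding transcripts with such a run, 319 had it in the 3′ UTR and 12 in the 5′ UTR, with medians of 1.88 and 0.70. The same held at different lengths. Among the shortest transcripts, up to 2188 bases, the median was 3.18 with 10 or more units and -0.31 with 3 or fewer, and among the longest, over 3901 bases, 1.57 and -0.02.

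Transcripts of the same gene with and without the run also differed. In 85 genes with a transcript of 10 or more units and another of 3 or fewer, the median log2 fold change was 2.07 for the transcript with the run and -0.06 for the one without, and it was higher in the transcript with the run in 73 of the 85 genes. Ubap2l, a ubiquitin-associated protein of stress granules, had a transcript with 20 units that averaged 4533 ± 3385 CPM in the nucleolin IPs and 184 ± 75.3 CPM in the blocked IPs (SD, n = 3 each), and a transcript with 3 units at 112 ± 52.8 CPM in the IPs and 37.0 ± 5.16 CPM in the blocked IPs. The retained intron transcript of Pkd2 with 22 units averaged 2585 ± 2139 CPM in the IPs and 64.8 ± 10.8 CPM in the blocked IPs, whereas its protein-coding transcript with 3 units averaged 215 ± 23.8 CPM in the IPs and 181 ± 46.2 CPM in the blocked IPs. The opposite was seen in 12 genes, among them Sipa1l3, where the transcript without the run had the larger log2 fold change, 5.08 against 1.93. Reads that isoforms share can be split between them, so the isoform values are uncertain. The pairs also differ in type: in many, as in Pkd2, a retained intron transcript held the run and a protein-coding one did not. With 3 or fewer units the median was 0.204 for retained intron and -0.175 for protein-coding transcripts. Some transcripts with the run were near 0 in the blocked IPs, such as Sepp1 at 0.153 CPM and Gpt2 at 0.721 CPM. The part of type and of the filter was not tested. Of the 85 transcripts with the run, 2 had no count in any blocked library, Ric1 and Rpgrip1l, with log2 fold changes of 11.2 and 10.3. Placing them at a floor of 3 counts left the median at 2.07. The median could not move while both stayed above it, so this is no check of the values near 0.

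**Figure D4:**
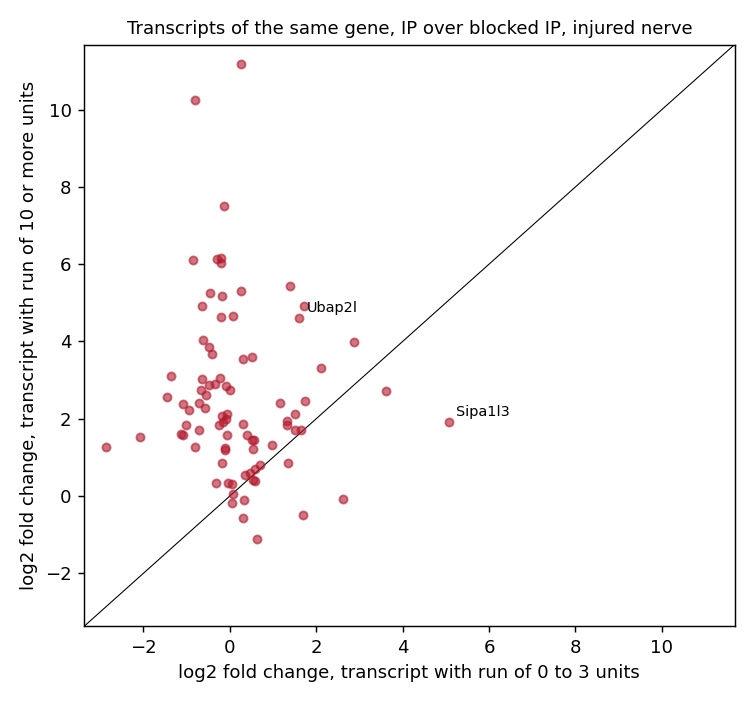
Log2 fold change of the transcript with a run of 10 or more units against that of the transcript with 3 or fewer units, for 85 genes, with the line of equal values. Of the points, 73 lie above the line, and Sipa1l3 is one of the 12 below it.

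The other IPs of the series were measured in the same way. In the nucleolin IPs of naive nerve, the median log2 fold change was 2.37 for 443 transcripts with 10 or more units and -0.22 for those with 3 or fewer. In PTBP1 IPs of injured nerve it was 0.11 for 341 transcripts with the run and -0.24 for those with 3 or fewer. Over the 10232 transcripts listed in all 4 tables used, with the same minimum level, the medians with the run were 1.97 in injured nucleolin, 2.19 in naive nucleolin and 0.17 in PTBP1 IPs.

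Transcripts with 10 or more units held 22.8%, 16.5% and 6.16% of all counts in the injured nucleolin IPs, against 3.18%, 3.33% and 3.00% of the blocked IPs. IP library 3 was far below the other IP libraries and still above every blocked library. In naive nerve the shares were 23.2%, 16.3% and 5.21% in the nucleolin IPs, against 3.48%, 3.16% and 2.92% in the blocked IPs. The 2.92% belongs to naive blocked IP 3, whose assignment is uncertain. The exact two-sided permutation test of naive IP against blocked IP gave p = 0.1, the smallest 3 against 3 allows. It cannot settle the direction, because the filter before deposit favours transcripts that are high in the IPs. In naive nerve 3829 transcripts reached 5 counts only in the IPs and 1438 only in the blocked IPs. The part of the filter in these shares was not tested. In PTBP1 IPs of injured nerve the shares were 7.40%, 7.80% and 4.41%, against 5.47%, 6.25% and 3.43% in the blocked PTBP1 IPs (exact permutation p = 0.3). The PTBP1 test has the same limit, with 5506 transcripts reaching 5 counts only in the IPs and 513 only in the blocked IPs. Injured input held 2.27% ± 0.92 (SD, n = 3). The same numbers stood out in injured and naive nerve, with the lowest IP share in the libraries numbered 3.

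**Figure D5:**
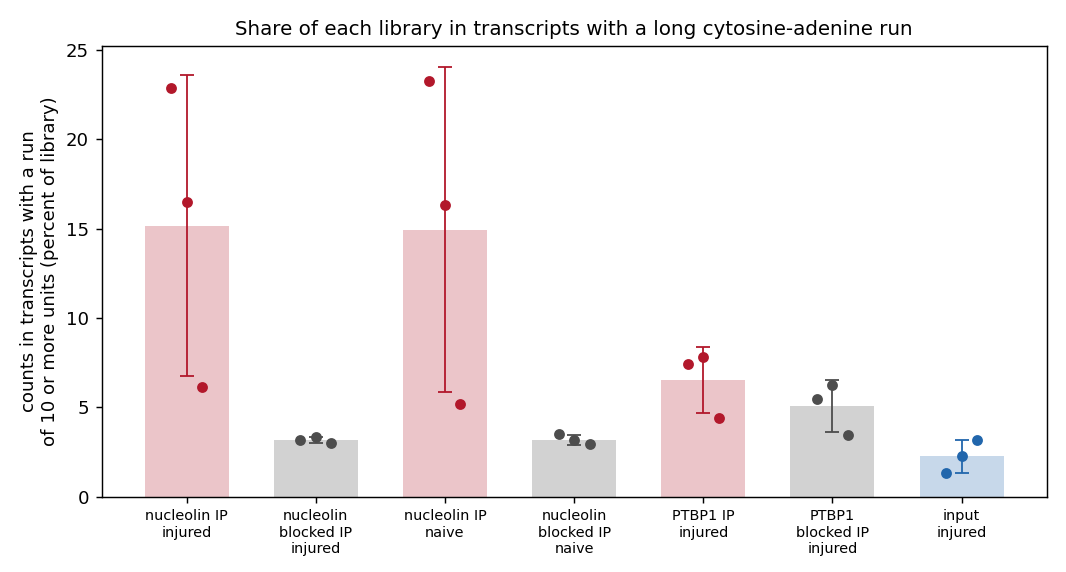
Percent of each library's counts in transcripts with a cytosine-adenine run of 10 or more units; points are libraries, bars means and error bars SD (n = 3). Nucleolin IP libraries range from 5.21% to 23.2% and all blocked nucleolin libraries from 2.92% to 3.48%.

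The IP and the blocked IP were also set against input RNA. Over transcripts shared with the input table, the median log2 ratio of IP to input was 2.35 with a run of 10 or more units and 0.46 with 3 or fewer. The median log2 ratio of blocked IP to input was 0.38 and 0.68. Input levels were scaled to library totals over the shared transcripts, without TMM factors. In input Yam1 averaged 210700 ± 164600 CPM and Lars2 70660 ± 73380 CPM (SD, n = 3 each). With TMM factors they averaged 23580 and 7883 CPM in the nucleolin IPs. Their part in the ratios was not tested.

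Of 10 candidate genes, 1 lay above the blocked IPs and 0 below, against 11.8% above and 5.38% below over all genes with 1 transcript each. Ncl itself had 4732, 1733 and 1070 CPM in the nucleolin IPs, against 1697, 857 and 642 CPM in the blocked IPs, so the groups overlapped (log2 fold change 1.24 ± 0.63 SE, adjusted p = 0.730). Kpnb1 averaged 327 ± 44.7 CPM in the IPs and 258 ± 67.3 CPM in the blocked IPs, with a log2 fold change of 0.34 ± 0.33 (SE). Mtor averaged 32.2 ± 7.95 CPM in the IPs and 30.1 ± 11.3 CPM in the blocked IPs (SD, n = 3 each), with a log2 fold change of 0.10 ± 0.53 (SE), whose sign turned without the libraries numbered 3 or with library totals. Kpnb1 holds at most 4 CA units and Mtor 3. Actb, Rhoa, Npm1, Top2a, Stat3 and Gap43, known as axonal mRNAs or as markers of growth and division, also had overlapping groups. Ptbp1 was the candidate that lay apart, at 1.92 ± 0.39 CPM in the IPs and 1.15 ± 0.174 CPM in the blocked IPs (SD, n = 3 each), and none had a run of 10 units.

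Lists of related genes, each gene represented by its most abundant tested transcript, gave a background of 11.8% of genes above the blocked IPs and 5.38% below. Of 76 ribosomal protein genes tested, 0 lay above and 6 below, with a median log2 fold change of -0.46 against -0.03 over all genes. Of 26 nuclear-encoded respiratory chain genes 0 lay above and 3 below, with a median of -0.59. Published nucleolin-bound mRNAs had 1 of 15 above and 1 below. The one below was Gadd45a, a stress-induced growth arrest gene, at 65.1 ± 3.12 CPM in the IPs and 116 ± 38.8 CPM in the blocked IPs (SD, n = 3 each). The one above was Bcl2, the inhibitor of apoptosis, at 330 ± 164 CPM in the IPs and 114 ± 17.5 CPM in the blocked IPs (SD, n = 3 each). Bcl2 carries a run of 27 CA units. Nucleolar and ribosome biogenesis genes had 1 of 21 above and 3 below, and axonal mRNAs 1 of 28 above and 2 below.

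Genes of injury and of glia were set against 11.8% of all genes above the blocked IPs and 5.38% below. Repair Schwann cell genes had 18.2% above and 9.09% below. Immediate-early genes had 11.1% and 33.3%, and lysosome and proton pump genes 8.33% and 20.8%. Among 11 repair Schwann cell genes, Ncam1, a cell adhesion molecule, had 3230, 1459 and 493 CPM in the nucleolin IPs, against 57.0, 22.9 and 95.9 CPM in the blocked IPs, and it holds a run of 18 CA units. Ngfr, the p75 neurotrophin receptor, averaged 141 ± 68.6 CPM in the IPs and 28.8 ± 6.45 CPM in the blocked IPs (SD, n = 3 each), and holds 16 units. The other 9 listed had log2 fold changes of -2.25 to 0.62. Among 18 immediate-early genes, Klf6 lay above with 2748, 2926 and 1155 CPM in the IPs, against 341, 266 and 392 CPM in the blocked IPs. Klf6 has 7 units. Fosl1, with 3 units, lay above as well, and 6 genes lay below, among them Junb and Fos. Among 24 lysosome and proton pump genes 2 lay above and 5 below, with a median log2 fold change of -0.49. Atp6v0d2, a proton pump subunit of macrophages and osteoclasts, lay above with a run of only 3 units, at 984, 757 and 676 CPM in the IPs, against 82.7, 70.7 and 224 CPM in the blocked IPs.

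The labelled source was checked by cell type markers. Of the 12 neuron markers, 8 were listed, and Prph, Chat, Scn9a and Scn10a were not. Their summed level was 81.6 to 143 CPM in the nucleolin IPs and 95.6 to 386 CPM in the blocked IPs, and that of Schwann cell and myelin markers 3841 to 7465 CPM in the IPs and 2660 to 8187 CPM in the blocked IPs. Macrophage markers summed to 3865 to 12720 CPM in the IPs and 4089 to 11730 CPM in the blocked IPs, and fibroblast markers to 13360 to 24020 CPM in the IPs and 9483 to 22980 CPM in the blocked IPs. Neuron markers were the lowest of these 4 lists. In such bulk samples fewer cells of a type and less RNA per cell cannot be told apart.

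The change of enrichment with injury was tested by the interaction of condition and IP in 12 nucleolin libraries. Of 11840 transcripts, edgeR called 0 higher and 0 lower (0.0% each way), with 302 at an unadjusted p of 0.05, and DESeq2 called 7 higher and 13 lower. The 5 higher with the lowest p were Atp6v0d2, Celsr3, Il1r2, Acap2 and Wdr45b. On the scale of these 12 libraries Atp6v0d2 had 955, 716 and 664 CPM in the injured nucleolin IPs, against 83.4, 70.7 and 218 CPM in the injured blocked IPs. In naive nerve it had 16.5, 4.66 and 10.3 CPM in the IPs, against 16.6, 22.7 and 8.38 CPM in the blocked IPs. The log2 difference was 3.25 with an adjusted p of 1.0. Celsr3, Il1r2 and Acap2 had overlapping groups in injured nerve, with log2 fold changes of 0.93, 0.41 and 0.39. In the naive nucleolin IPs Celsr3 had 0.0927, 0.0950 and 0.0 CPM, and Il1r2 0.0, 0.0 and 0.813 CPM. The differences of Celsr3 and Il1r2 thus rest on naive IP values near 0. The 5 lower were Gm26816, Iqce, Gm10548, Cln3 and Gm11427, and except for Iqce these had no count in any naive blocked library, so that no fold is given. Among named transcripts with a CA run, log2 fold changes in injured and naive nerve, each from its own table's fit, were close for some and not for others. They were 4.82 in injured and 4.82 in naive nerve for Cat, and 5.32 in injured and 5.38 in naive nerve for Pkd2. For Slc31a2, with 17 units, they were 4.88 in injured and 2.83 in naive nerve, and for Rbm5 3.50 in injured and 5.20 in naive nerve.

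The difference from the PTBP1 antibody was tested in the same way in 12 injured libraries, of which the 6 nucleolin libraries also served in the comparison with naive nerve. Of 12618 transcripts, edgeR called 0 higher and 0 lower (0.0% each way), with 1297 at an unadjusted p of 0.05, and DESeq2 called 79 higher and 339 lower. The 5 higher in nucleolin with the lowest p were Pkd2, Exoc4, 6820431F20Rik, ENSMUST00000179299 and Slc31a2, a copper transporter, with log2 differences of 4.55 to 6.60 and adjusted p of 0.115 to 0.157. On the scale of these 12 libraries, which differs from that of the 6 used above, Pkd2 had 4036, 1672 and 584 CPM in the nucleolin IPs, against 63.6, 53.2 and 44.6 CPM in their blocked IPs. In the PTBP1 IPs it had 50.5, 50.6 and 65.2 CPM, against 245, 119 and 51.0 CPM in the blocked PTBP1 IPs. The 5 lower were Tti2, Vcp, Ssbp2, Ralgapb and Gnb4, whose blocked PTBP1 libraries held 0.12 CPM or less.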

How the data were processed

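RNA from nucleolin IPs and blocked IPs of injured sciatic nerve axoplasm was measured in 3 libraries per group, with naive nucleolin, injured PTBP1 and injured input libraries beside them. The authors deposited whole-number read counts for each Ensembl transcript; CASAVA 1.8.2, edgeR and the mm10 and GRCm38 builds are named per the submitters' processing notes, and no source used here gives the aligner or counter. Another 135 per-sample columns of derived values were not used. The deposited fold changes were not used either, because they do not follow the labelled libraries. The reason is not known, and the libraries were taken as labelled. Counts were tested with edgeR 4.0.16 (R 4.3.3, quasi-likelihood, TMM, filterByExpr, Benjamini-Hochberg, two-sided, adjusted p of 0.05), and DESeq2 1.42.0 served as an alternative. The fit was tested on simulated data. The 6 libraries of the main comparison shared 1 fit, and interactions used 12. Named transcripts were the 12 each way with the lowest p among those with a mean of at least 5 CPM and groups apart, since fewer passed, plus candidates, the 10 most abundant in the IP, list members, and 5 each way per interaction. Genes and lists were chosen with earlier results of these data known. The CA runs were found after the data were examined. Annotation and sequences were GENCODE M21 (GRCm38), which held 15507 of 15841 transcripts. A pseudocount of 0.5 CPM was used for log2 correlations and ratios to input. Repeats of the experiment are described as biological, and depth is the filtered total, so intervals are not given. Alternatives were other scalings and filters, the replicate block, counts per gene, and leaving out libraries. Some genes that the naming rule covers are not reported here.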

Additional observations from a re-analysis of the deposited data

How the results depend on the processing

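The number of transcripts called was 0 under most settings. Leaving out 1 library gave 0 to 81 calls for IP over blocked IP, 0 to 5 for injured minus naive and 0 to 26 for nucleolin minus PTBP1. The 81 came without IP library 3, the 5 without naive blocked IP 3, and the 26, 9, 9 and 1 without PTBP1 IP 3, PTBP1 blocked IP 3, nucleolin IP 3 and nucleolin blocked IP 1. DESeq2 called 523, 20 and 418, and library totals without TMM gave 2 for nucleolin minus PTBP1. A fit of 12 injured libraries of both antibodies, chosen after seeing the data, called 11, and all 11 were also called higher by DESeq2. The cause was not tested. Of the 24 transcripts named by p, DESeq2 passed 17, that fit 7, and leaving out 1 library 0 to 12. A run of 10 or more CA units was held by 60 of the 80 annotated among the 81, 187 of 493 among those DESeq2 called higher and 6 of 10 in the fit of 12, against 4.77% of all annotated transcripts averaging 5 CPM or more. The replicate block gave 0 calls in each comparison, with 1077 transcripts at an unadjusted p of 0.05 for IP over blocked IP. Same-numbered deviations of IP and blocked IP correlated at 0.0398, 0.162 and 0.264, and differently numbered ones at -0.184 to 0.0595. The highest of the latter was IP 1 with blocked library 2. Whether the numbers pair samples was not tested, and the main fit took no account of them. Between injured and naive nerve, same-numbered deviations correlated at 0.315, 0.109 and 0.532 in the IPs and 0.0644, 0.0764 and 0.191 in the blocked IPs. With the replicate block 0 transcripts were called for injured minus naive, with 300 at an unadjusted p of 0.05.

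The share at 0 counts, IP minus blocked IP, was -10.9 points. It was -12.7 points for 5 counts or fewer, -11.5 points after thinning, and -15.9 to -5.74 points leaving out 1 library. Because the filter set the direction of this measure, these alternatives are no check of it. The offset of long-run transcripts was 2.23 (log2), and it ran from 1.67 to 2.64 over 21 alternatives chosen after seeing the data. Among single transcripts, 614 results kept their direction and side of the threshold, 43 passed it and 10 changed sign. Mtor turned to -0.02 without the libraries numbered 3 and -0.092 with library totals. Leaving out 1 library gave -0.22 to 0.28 for Mtor, -0.27 to 2.22 for Stat3, -0.48 to 0.23 for Rhoa, -1.15 to 0.43 for Npm1 and -0.705 to 0.065 for Ctsb.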
